A study of Mus musculus with 9 samples.

Results

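The 43 genes described here encode the enzymes of cholesterol and fatty acid synthesis and the proteins that sense, carry and store sterols in mouse oviductal epithelial (MOE) cells. They were chosen by name, with earlier results of these data known. All 43 were found among the 23332 gene rows measured, 42 under their own symbol and *Tm7sf2* in a row that it shares with *1110014N23Rik*. The RNA came from FVB MOE cells, which were grown from 1 clone and are described by the study as secretory. In all 3 groups the cells were first kept for 48 h in medium without hormone (phenol red free, with charcoal stripped serum) and were then treated for 24 h. One group received the solvent DMSO at 0.1%, one received 1 nM 17β-estradiol (E2) and one received 100 nM 4-hydroxytamoxifen (4OHT), the active metabolite of tamoxifen, and each group had 3 samples. The doses of the 2 ligands differ, and no sample received both. The clone stands for the tissue, and the sources used here do not say whether the replicates were separate cultures, so the p-values measure only the spread between these samples.

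Cells obtain cholesterol by making it from acetyl-CoA through the mevalonate pathway, or by taking up lipoproteins. When sterols in the endoplasmic reticulum are low, SCAP escorts the transcription factors SREBP1 and SREBP2 to the Golgi, where they are cut and released to the nucleus to activate the genes of sterol and fatty acid synthesis. INSIG proteins hold SCAP back when sterols are plentiful, and oxysterols activate the liver X receptors (LXR), which turn on genes of sterol export. *Insig1* and most enzymes of the mevalonate and sterol branches are textbook SREBP2 targets, whereas fatty acid enzymes such as *Fasn* are linked more to SREBP1.

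FPKM, the unit used throughout, divides the fragments of a gene by its transcript length and by the mapped fragments of the sample, so that levels can be compared between genes. Summed over all rows, the FPKM came to 522517 at the lowest and 588640 at the highest sample. The relative depth, read from the steps between low values, was 0.824 to 0.927 of that of DMSO replicate 1 in 4OHT, 1.00 to 1.19 in DMSO and 0.841 to 1.06 in E2. Each 4OHT sample was thus shallower than each DMSO sample, so in that comparison the effects of depth and of the ligand cannot be told apart. Of 7 markers of secretory epithelium, 5 were at 1 FPKM or more in all 9 samples, among them *Pax8* at 105 to 150 FPKM, *Ovgp1* was at 1.44 to 2.61 FPKM, and *Epcam* and *Cdh1* stayed below 1 FPKM. Some of the markers moved with E2: the secretory list summed to 1260 to 1391 FPKM in DMSO, 2154 to 2319 FPKM in E2 and 1341 to 1487 FPKM in 4OHT, with a mean of *Krt7* of 310 FPKM in DMSO and 817 FPKM in E2. Most of this sum was the keratins *Krt7*, *Krt8* and *Krt18*. *Pax8* and *Ovgp1* overlapped between DMSO and E2, with means of 119 and 133 FPKM for *Pax8* and a lower mean in E2 for *Ovgp1* (2.24 and 1.65 FPKM). Markers of ciliated cells were also measured. The 3 of 6 with a row summed to 17.9 to 20.6 FPKM in DMSO, 13.6 to 17.7 FPKM in E2 and 18.3 to 20.5 FPKM in 4OHT, so that E2 lay below the others without overlap. Most of this sum was *Foxj1*, with a mean of 15.0 FPKM in DMSO and 11.2 FPKM in E2. The 3 markers did not move together. *Rsph1* was higher in E2 without overlap (means of 3.10 FPKM in DMSO and 3.68 FPKM in E2), and *Ccdc39* overlapped (1.45 and 1.21 FPKM). The 3 endothelial markers summed to 0.623 to 0.837 FPKM in DMSO and 1.17 to 1.40 FPKM in E2, mostly *Kdr*, the 4 leukocyte markers to 3.98 to 4.01 and 3.54 to 3.85 FPKM, nearly all *Cd68*, and the 4 fibroblast markers to 1.92 to 6.85 and 2.21 to 4.64 FPKM, nearly all *Col1a1*. The 4 adipocyte markers summed to at most 0.331 FPKM in any sample, and *Thy1* and *Cd52* were listed at 0 in all 9. The part of these shifts in the results below was not tested. *Pgr*, a classical target of the estrogen receptor, was higher with E2 by 2.70 on the log2 scale (limma, adjusted p = 0.000134) and *Greb1*, another, by 2.00 (adjusted p = 0.000516). In DMSO both were highest in replicate 1, with 9.58 FPKM of *Pgr* against 1.36 and 1.16, and 14.3 FPKM of *Greb1* against 2.58 and 2.30.

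Short stretches upstream of the start are shown for 6 of the genes that rose with E2. *Hmgcs1* was chosen for its match to the sterol regulatory element described below. The other 5 had the largest rises among genes with an upstream CCAAT box in a stretch free of annotated untranslated regions. Genes without such a stretch were passed over, so all 5 have the box by choice. Whether elements in them have a part in the response to E2 was not tested. The stretches are from RefSeq on GRCm38.p6, the assembly that mm10 names, and are printed 5′ to 3′ on the strand of the gene. In the first 5, capitals mark a CCAAT box, the site of the factor NF-Y, read as CCAAT or as its complement ATTGG.
Hsd17b7: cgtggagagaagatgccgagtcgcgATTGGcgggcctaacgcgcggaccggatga
Lss: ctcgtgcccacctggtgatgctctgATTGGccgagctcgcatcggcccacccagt
Insig1: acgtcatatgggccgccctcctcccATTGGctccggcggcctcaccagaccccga
Nsdhl: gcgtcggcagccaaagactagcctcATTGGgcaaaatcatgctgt
Mvd: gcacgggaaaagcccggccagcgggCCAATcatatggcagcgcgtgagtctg
The stretch of *Hsd17b7* is chr1:169969249-169969303 on the minus strand, that of *Lss* chr10:76531518-76531572 on the plus strand and that of *Insig1* chr5:28071171-28071225 on the plus strand. Those of *Nsdhl* and *Mvd* are chrX:72918476-72918520 on the plus strand and chr8:122443423-122443474 on the minus strand. The box begins 73 bases before the start in *Hsd17b7*, 62 in *Lss*, 216 in *Insig1*, 20 in *Nsdhl* and 27 in *Mvd*.

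For *Hmgcs1* a longer stretch of 150 bases is given, chr13:119690194-119690343 on the plus strand. Its first capitals are a match to the sterol regulatory element TCACNCCAC, the kind of site that SREBP binds, and its last are a CCAAT box.
Hmgcs1: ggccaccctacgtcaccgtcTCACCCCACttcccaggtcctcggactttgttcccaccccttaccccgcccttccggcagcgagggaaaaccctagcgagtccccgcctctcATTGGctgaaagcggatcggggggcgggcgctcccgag
The match to the element began 137 bases before the start and the CCAAT box 45 bases before it.

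Windows from 250 bases before to 50 bases after a RefSeq start were matched for 33 of the 43 genes, and were searched on both strands, counting a gene where any of its starts had a match. *Abcg1*, *Fads1*, *Fdft1*, *Fdps*, *Npc1*, *Scarb1*, *Scd1*, *Scd2*, *Sqle* and *Stard4* had no window in the table. CCAAT was found in 14 of the 14 matched genes that rose with E2 and in 11 of the 19 others, beside 41.1% of all 27025 genes with a window and 43.6% of the 8110 of these with an FPKM of at least 1 in 3 samples. The full count depends on counting any start. In *Dhcr7* and *Me1* CCAAT was found only in the window of an alternative start, and not in that nearest the annotated start of the gene. The GC box GGGCGG was found in 13 of 14 and 13 of 19, beside 71.1% of the expressed genes. The sterol regulatory element TCACNCCAC was found only in *Hmgcs1* among the 33 genes, beside 1.34% of the expressed genes. The E box CACGTG was found in 3 of 14 and 2 of 19 (12.1% of the expressed genes). The estrogen response element half-site GGTCA was found in 7 of 14 and 8 of 19 (41.9%), and 2 half-sites facing each other across 3 bases in none of the 33 genes and none of the expressed genes. These matches are letters in a short window and were not tested as binding sites.

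In DMSO the lipid synthesis genes ranged over more than 2 orders of magnitude, with a median of 28.5 FPKM, against 13.6 FPKM over the 11339 gene rows with at least 1 FPKM in 3 samples. The 5 genes at or above 100 FPKM were *Fads2*, *Scd2*, *Fads1*, *Acly* and *Fdps*. The first 3 are desaturases that place double bonds in fatty acids, *Acly* makes the acetyl-CoA of the cytosol, and *Fdps* makes farnesyl diphosphate. *Fads2* (271 FPKM) and *Scd2* (250 FPKM) overlapped in their 3 samples, and both lay above *Fads1* (133 FPKM). Of the 42 pairs of neighbours in the order of mean levels, 36 overlapped over their 3 samples, so that most of the order is within the spread. Of the 2 LXR genes, *Nr1h2* (LXRβ) was at 41.0 FPKM and *Nr1h3* (LXRα) at 1.14 FPKM. *Mylip*, a ligase that degrades lipoprotein receptors, was at 1.68 FPKM and the cholesterol exporter *Abca1* at 1.03 FPKM, while *Srebf1* and *Scd1*, which LXR can also activate, were at 20.4 and 35.4 FPKM.

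**Figure D1:**
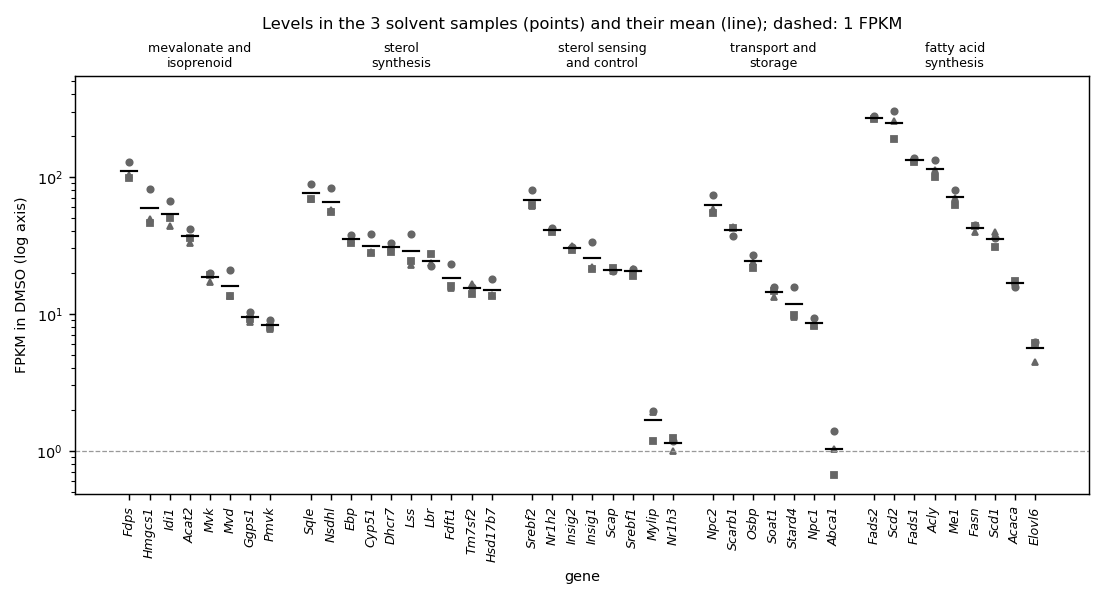
FPKM of the lipid synthesis genes in the 3 DMSO samples (circle, square and triangle for replicates 1, 2 and 3; log axis), ordered by mean level within each role, with the mean as a line. *Fads2* and *Scd2* were highest at 271 and 250 FPKM, and *Mylip*, *Nr1h3* and *Abca1* lay near 1 FPKM. *Abcg1*, listed at 0, is not drawn.

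The first comparison asked how the lipid synthesis genes respond to E2. Of the 41 genes expressed highly enough to be tested, 19 were higher in E2 than in DMSO and 0 were lower at an adjusted p under 0.05 (limma on log2(FPKM + 1) with the replicate number as a block, Benjamini-Hochberg adjustment over all rows tested). Over all 11250 rows tested, 12.2% were higher and 6.66% were lower. Since the genes were chosen with earlier results of these data known, the 2 shares are not an independent comparison. The median log2 fold change was 0.15 over the 41 genes and -0.0021 over all rows, and the changes called among the 41 were small, from 0.14 to 0.53. Among these genes, calls were more frequent in the cholesterol branch, with 5 of 8 genes of the mevalonate and isoprenoid steps and 7 of 10 of the later sterol steps, against 2 of 9 genes of fatty acid synthesis. Whether the branches differ was not tested, and the further genes of the pathways described at the end showed no such contrast, with 7 of 17 sterol genes and 9 of 21 fatty acid genes higher.

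These calls rest on the pairing of the samples by replicate number. Without the block, limma called 0 of the 41 genes, and 7 had an unadjusted p under 0.05, beside 1236 of all 11250 rows. Of all rows 0.613% were called in either direction, and the smallest adjusted p among the 41 genes was 0.205 (limma). By the order of the samples alone, 29 of the 41 genes had the E2 value above the DMSO value in each of the 3 pairs, beside 28.2% of all rows. In 7 of the 41 every E2 sample lay above every DMSO sample, beside 9.14% of all rows. These 7 were *Hsd17b7*, *Me1*, *Dhcr7*, *Mvk*, *Insig2*, *Srebf1* and *Nr1h2*. When each sample was left out in turn, or each replicate number in all conditions, between 10 and 21 genes were called, with 12 without DMSO replicate 3 and 10 without replicate 3. The rows called over the whole table fell as well, from 1372 higher and 749 lower in the main fit. They were 742 higher and 231 lower without DMSO replicate 3, and 569 and 159 without replicate 3. When the FPKM were scaled to their upper quartile, 19 genes were higher and 2, *Lbr* and *Fads2*, were lower, and the rows called over the whole table were 1165 higher and 1308 lower, in place of 1372 and 749.

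**Figure D2:**
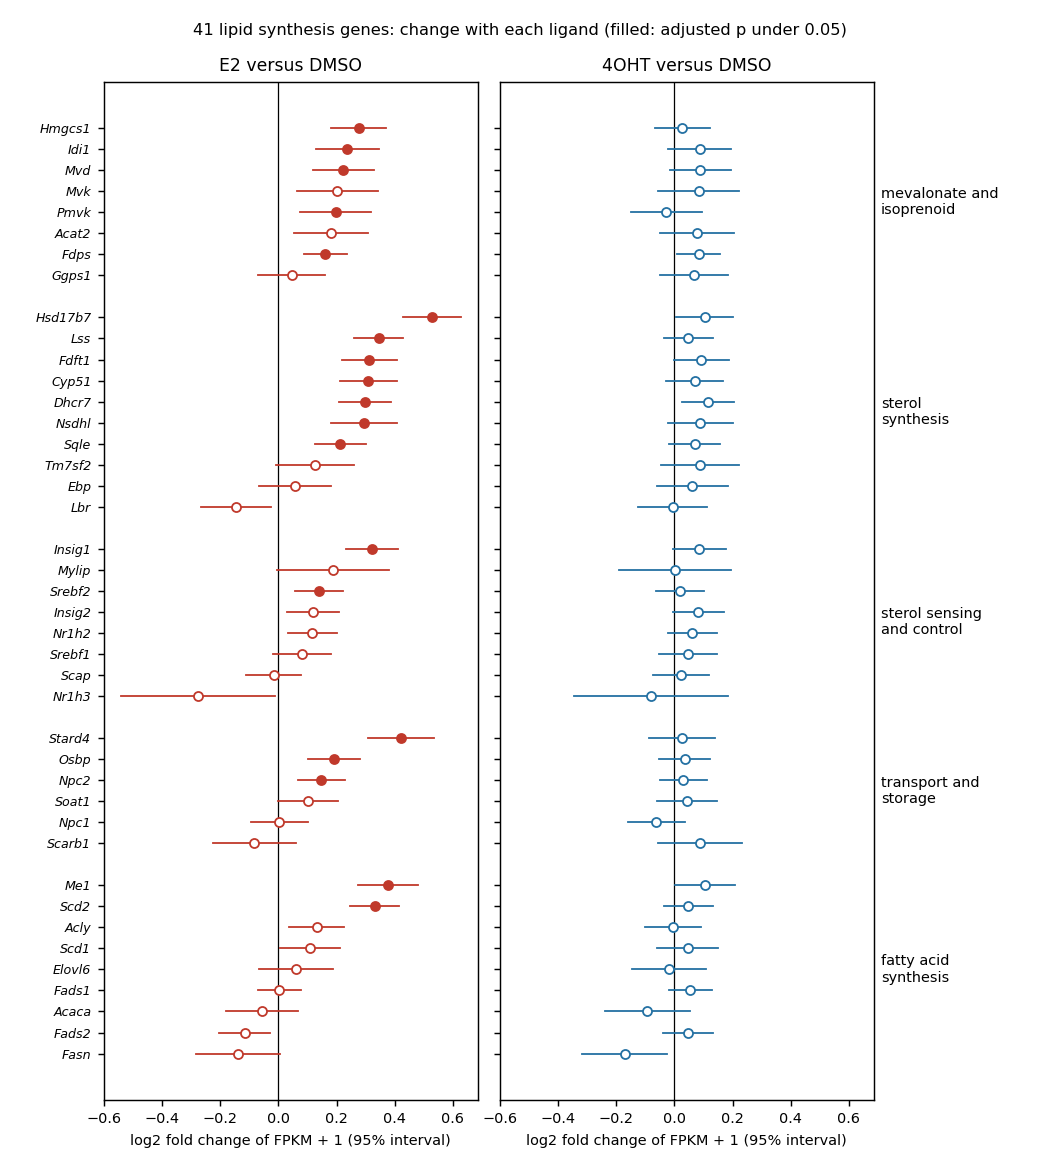
Log2 fold change of FPKM + 1 with its 95% interval for the 41 tested genes, by role, for E2 versus DMSO (left) and 4OHT versus DMSO (right), from the limma fit with the replicate block. Filled points have an adjusted p under 0.05. With E2, 19 points are filled, all to the right of 0, and with 4OHT none is. The 2 panels share the DMSO samples.

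The early part of the pathway, from acetyl-CoA to farnesyl and geranylgeranyl diphosphate, had 8 tested genes with a median log2 fold change of 0.20 with E2. *Hmgcs1*, which makes HMG-CoA from acetyl-CoA and acetoacetyl-CoA, rose by 0.28 (standard error 0.041, adjusted p = 0.00288, limma). *Idi1*, which isomerises isopentenyl diphosphate, rose by 0.24 (standard error 0.047, adjusted p = 0.0108), *Mvd*, which makes it, by 0.22 (standard error 0.046, adjusted p = 0.0126) and the kinase *Pmvk* by 0.20 (standard error 0.053, adjusted p = 0.0364). *Fdps* was measured at 129, 97.7 and 103 FPKM in DMSO, at 143, 108 and 118 FPKM in E2 and at 134, 105 and 110 FPKM in 4OHT, in the order of replicates 1, 2 and 3. Replicate 1 was the highest in each condition and the groups overlapped, but within each replicate number E2 was the highest of the 3 (log2 fold change 0.16 over DMSO, standard error 0.033, adjusted p = 0.0114). *Mvk* (0.20, adjusted p = 0.0516) and the thiolase *Acat2* (0.18, adjusted p = 0.0561) just missed the threshold, with higher values in all 3 pairs. *Ggps1*, which makes the geranylgeranyl diphosphate used for protein prenylation, had a log2 fold change of 0.05 with a 95% interval from -0.07 to 0.16.

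The later steps, from squalene to cholesterol, held the largest change of the 41 genes. *Hsd17b7*, a dehydrogenase that acts as the 3-keto reductase of cholesterol synthesis, lies on chromosome 1 of mm10 from 169949535 to 169969241. It was measured at 17.9, 13.5 and 13.7 FPKM in the DMSO replicates 1, 2 and 3, at 26.1, 19.4 and 20.9 FPKM in E2 and at 18.1, 14.6 and 15.9 FPKM in 4OHT. Each E2 sample lay above each sample of the other groups, and the log2 fold change of E2 over DMSO was 0.53 (standard error 0.043, adjusted p = 0.000167), a rise of 44.2% on the scale of FPKM + 1.

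*Lss* (lanosterol synthase, chromosome 10 from 76531588 to 76557138) closes the ring system of the sterols. Its FPKM was 38.6, 24.4 and 22.6 in DMSO, 47.7, 31.2 and 30.0 in E2 and 38.1, 25.6 and 24.3 in 4OHT. Replicate 1 of each condition stood above the other two, and DMSO replicate 1 exceeded E2 replicates 2 and 3, so that the groups overlapped although E2 was higher in each pair (0.34, standard error 0.036, adjusted p = 0.000555). *Fdft1* (chromosome 14 from 63145150 to 63179578) encodes squalene synthase, the first enzyme committed to sterols. It was measured at 23.0, 16.1 and 15.3 FPKM in DMSO, at 28.1, 19.5 and 20.5 FPKM in E2 and at 23.4, 17.5 and 16.9 FPKM in 4OHT. The pattern was that of *Lss*, with overlap through replicate 1 and a rise in each pair (0.31, standard error 0.041, adjusted p = 0.00172).

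*Cyp51* (chromosome 5 from 4081145 to 4104746), the lanosterol demethylase, had an FPKM of 38.5, 27.7 and 28.3 in DMSO, of 47.9, 32.7 and 37.4 in E2 and of 38.6, 28.9 and 31.5 in 4OHT. Its groups overlapped, and E2 was higher in each pair (0.31, standard error 0.043, adjusted p = 0.00208). *Dhcr7* (chromosome 7 from 143823145 to 143848410), which carries out the last step of one branch, was measured at 32.8, 28.4 and 30.7 FPKM in DMSO, at 42.9, 33.9 and 37.1 FPKM in E2 and at 35.5, 30.8 and 33.5 FPKM in 4OHT. All 3 E2 samples exceeded all 3 DMSO samples, by 0.30 on the log2 scale (standard error 0.039, adjusted p = 0.00165). *Nsdhl*, which takes part in removing the C4 methyl groups, rose by 0.29 (standard error 0.049, adjusted p = 0.00502) and the epoxidase *Sqle* by 0.21 (standard error 0.039, adjusted p = 0.00748). Of the other 3 genes, *Tm7sf2* had a log2 fold change of 0.13 (adjusted p = 0.172, in a row shared with another symbol), *Ebp* of 0.06 (adjusted p = 0.496) and *Lbr* of -0.15 (adjusted p = 0.0857). *Lbr* is a sterol reductase that is also a receptor of the nuclear lamina, and it was lower in E2 in all 3 pairs.

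**Figure D3:**
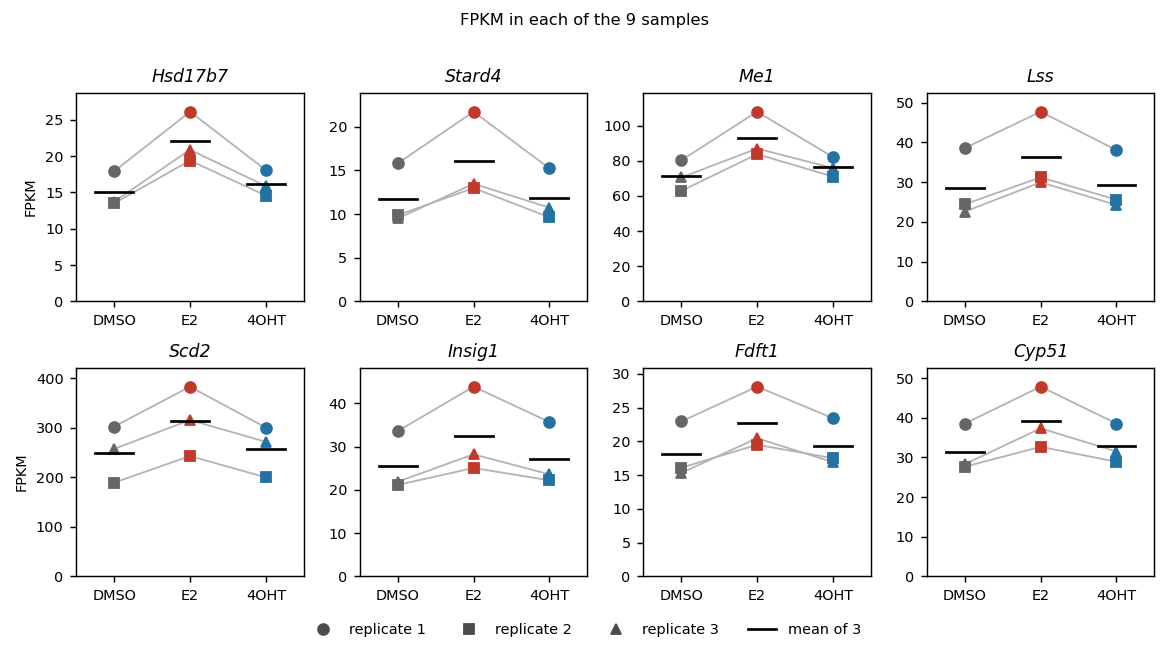
FPKM in each sample for the 8 genes with the largest called change between E2 and DMSO. Points of the same replicate number are joined by grey lines, black bars are means of 3 samples, and the axes start at 0. In each panel E2 is the highest point of each line, and the line of replicate 1 is the highest in all 8 panels.

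Among the 8 tested genes that sense sterols or control the pathway, 2 rose with E2, and the median log2 fold change was 0.12. *Insig1* (chromosome 5 from 28071363 to 28078662), the sterol-regulated anchor of SCAP, had an FPKM of 33.6, 21.1 and 21.9 in DMSO, of 43.9, 25.1 and 28.2 in E2 and of 35.7, 22.2 and 23.6 in 4OHT. The groups overlapped through replicate 1, and E2 was higher in each pair (0.32, standard error 0.039, adjusted p = 0.00113). *Srebf2* (chromosome 15 from 82147181 to 82205379), which encodes SREBP2, was measured at 80.9, 62.5 and 61.3 FPKM in DMSO, at 90.2, 68.6 and 67.1 FPKM in E2 and at 79.3, 65.9 and 61.8 FPKM in 4OHT. Its groups also overlapped, with a smaller rise of 0.14 (standard error 0.036, adjusted p = 0.0314).

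*Srebf1* (chromosome 11 from 60199089 to 60222581), which encodes SREBP1, was nearly level, with 21.2, 18.9 and 21.2 FPKM in DMSO, 22.3, 21.3 and 21.4 FPKM in E2 and 21.4, 21.1 and 20.8 FPKM in 4OHT. The E2 samples lay just above the DMSO samples, and the log2 fold change of 0.08 did not pass the test (standard error 0.043, 95% interval -0.02 to 0.18, adjusted p = 0.222). *Insig2* (0.12, adjusted p = 0.0644) and *Nr1h2* (0.12, adjusted p = 0.0583) were higher in all 3 pairs without passing, and *Scap* had a log2 fold change of -0.02 (95% interval -0.11 to 0.08). *Nr1h3* had an FPKM of 1.18, 1.23 and 0.993 in DMSO, of 0.490, 0.826 and 1.01 in E2 and of 1.17, 0.906 and 0.978 in 4OHT. Its E2 samples were lower in replicates 1 and 2 and not in replicate 3 (-0.28, standard error 0.12, adjusted p = 0.131). *Mylip*, an LXR target, was measured at 1.95, 1.17 and 1.92 FPKM in DMSO, at 2.11, 1.75 and 2.23 FPKM in E2 and at 1.77, 1.60 and 1.60 FPKM in 4OHT. Its groups overlapped, and its log2 fold change of 0.19 with E2 was not called (standard error 0.085, adjusted p = 0.156).

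Of the 8 genes that move or store sterols, 6 were tested and 3 rose with E2. *Stard4* (chromosome 18 from 33199355 to 33213862), a small protein that carries cholesterol between membranes, had the second largest change of the 41 genes. It was measured at 15.8, 9.87 and 9.49 FPKM in DMSO, at 21.7, 13.0 and 13.5 FPKM in E2 and at 15.2, 9.63 and 10.7 FPKM in 4OHT. DMSO replicate 1 lay above E2 replicates 2 and 3, while each pair moved up (0.42, standard error 0.050, adjusted p = 0.000972). *Osbp*, which exchanges sterol for a phosphoinositide at the Golgi, rose by 0.19 (standard error 0.039, adjusted p = 0.0119) and *Npc2*, which hands cholesterol to NPC1 in the lysosome, by 0.15 (standard error 0.035, adjusted p = 0.0231). *Soat1*, which esterifies cholesterol for storage, had a log2 fold change of 0.10 (adjusted p = 0.156), *Npc1* of 0.0035 (95% interval -0.10 to 0.10) and the lipoprotein receptor *Scarb1* of -0.08 (adjusted p = 0.384).

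The 2 genes below the filter were the exporters. *Abca1* had an FPKM of 1.40, 0.660 and 1.04 in DMSO, of 0.889, 0.685 and 0.644 in E2 and of 0.846, 0.573 and 0.909 in 4OHT, and the groups overlapped. *Abcg1* was listed at 0 in all 9 samples.

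Fatty acid synthesis had 2 called genes of 9, and its median log2 fold change was 0.06. *Me1* (chromosome 9 from 86581371 to 86695953), malic enzyme, supplies NADPH for lipid synthesis. It was measured at 80.3, 62.9 and 70.5 FPKM in DMSO, at 108, 83.8 and 87.0 FPKM in E2 and at 82.2, 71.1 and 75.9 FPKM in 4OHT. All E2 samples were above all DMSO samples (0.38, standard error 0.045, adjusted p = 0.000997). *Scd2* (chromosome 19 from 44293674 to 44306864), a stearoyl-CoA desaturase, had an FPKM of 302, 189 and 257 in DMSO, of 383, 243 and 316 in E2 and of 300, 200 and 271 in 4OHT. Replicate 2 was the lowest in each condition, and the groups overlapped although each pair rose (0.33, standard error 0.037, adjusted p = 0.000767). *Scd1*, its neighbour and paralog, had a log2 value of 0.11 for the same comparison (adjusted p = 0.133), and reads of 50 bp could have been shared between the 2 genes.

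The core enzymes of the branch did not pass. *Fasn* (chromosome 11 from 120805846 to 120824547), fatty acid synthase, was measured at 44.7, 43.6 and 39.7 FPKM in DMSO, at 42.2, 43.8 and 31.0 FPKM in E2 and at 38.7, 40.9 and 33.8 FPKM in 4OHT. The lowest value was that of E2 replicate 3, the groups overlapped, and the change between E2 and DMSO came to -0.14 (standard error 0.064, 95% interval -0.29 to 0.01, adjusted p = 0.159). *Acaca*, acetyl-CoA carboxylase, was at 15.8, 17.4 and 16.8 FPKM in DMSO and at 16.2, 16.9 and 14.9 FPKM in E2, and in 4OHT it was listed at 0 in replicate 1 and at 15.5 and 15.9 FPKM in replicates 2 and 3. It was the only tested gene of the 41 with an exact 0, which was taken as missing, and the change with E2 came to -0.06 (standard error 0.053, adjusted p = 0.499). *Acly* had a log2 fold change of 0.13 (adjusted p = 0.0624), *Elovl6* of 0.06, *Fads1* of 0.0035 (95% interval -0.07 to 0.08) and *Fads2* of -0.12 (adjusted p = 0.0654). *Fads2* was the only one of the 41 genes with every E2 sample below every DMSO sample, beside 682 of all 11250 rows.

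The second comparison asked whether 4OHT alone changed these genes. The test called 0 of the 41 genes (limma, with and without the block), and 5 had an unadjusted p under 0.05 with the block and 0 without it. Over all rows, 0.0622% were called with the block. Of the 11250 rows, 1552 had an unadjusted p under 0.05 with the block and 289 without it (limma). The smallest adjusted p among the 41 genes was 0.311 and the median log2 fold change was 0.05, beside 0.02 over all rows. In each of the 3 pairs, 14 of the 41 genes had the 4OHT value above the DMSO value, beside 30.4% of all rows. Among the lowest unadjusted p were those of *Dhcr7* (log2 fold change 0.12, standard error 0.039, adjusted p = 0.311), *Fasn* (-0.17, standard error 0.064, adjusted p = 0.325), *Fdps* (0.08, standard error 0.033, adjusted p = 0.331) and *Hsd17b7* (0.10, standard error 0.043, adjusted p = 0.350). The 95% interval of *Hsd17b7* ran from 0.0048 to 0.20 with 4OHT and from 0.43 to 0.63 with E2. In the same order, that of *Stard4* ran from -0.09 to 0.14 and from 0.31 to 0.53, and that of *Lss* from -0.04 to 0.13 and from 0.26 to 0.43. For *Insig1* the change with 4OHT was 0.09 (standard error 0.039, adjusted p = 0.369), for *Srebf2* 0.02 (standard error 0.036, adjusted p = 0.797) and for *Srebf1* 0.05 (standard error 0.043, adjusted p = 0.612). The weak genes *Nr1h3* (-0.08, standard error 0.12, adjusted p = 0.736) and *Mylip* (0.0013, standard error 0.085, adjusted p = 0.996) were not called, nor was *Acaca*, fitted without its missing value (-0.09, standard error 0.062, adjusted p = 0.490).

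The direct comparison of the ligands, at their different doses, gave 17 genes higher and 1 lower in E2 than in 4OHT of the 41 tested. Over all rows, 10.9% were higher and 11.3% were lower in E2. Without the block, 0 of the 41 genes were called and 3 had an unadjusted p under 0.05, beside 1331 of all 11250 rows, and 0.347% of all rows were called (limma). The count was 6 without replicate 1 and 7 without 4OHT replicate 1, and between 6 and 17 over all fits that left out a sample or a replicate number. The rows called over the whole table fell as well, from 1225 higher and 1274 lower in the main fit. They were 627 higher and 550 lower without replicate 1, and 496 and 214 without 4OHT replicate 1. The largest differences were those of *Hsd17b7* (0.42, standard error 0.043, adjusted p = 0.000646), *Stard4* (0.39, standard error 0.050, adjusted p = 0.00166), *Lss* (0.30, standard error 0.036, adjusted p = 0.00145) and *Scd2* (0.28, standard error 0.037, adjusted p = 0.00201). Of the 10 sterol synthesis genes 7 were higher, the others being *Cyp51* at 0.24, *Fdft1* at 0.22, *Nsdhl* at 0.21, *Dhcr7* at 0.18 and *Sqle* at 0.14. Of the mevalonate steps, *Hmgcs1* (0.25) and *Pmvk* (0.22) were called. *Me1* (0.27), *Insig1* (0.24), *Osbp* (0.16), *Acly* (0.14), *Srebf2* (0.12) and *Npc2* (0.12) completed the list, with adjusted p from 0.00547 to 0.0489. *Fads2*, the desaturase that begins the synthesis of polyunsaturated fatty acids, was the gene lower in E2. It had 251, 247 and 252 FPKM in E2 against 286, 287 and 267 FPKM in 4OHT, without overlap (log2 fold change -0.16, standard error 0.038, adjusted p = 0.0201). The comparisons of each ligand with DMSO share the DMSO samples, and both comparisons of E2 share the E2 samples, so these lists are not independent of each other.

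The replicates also differed among themselves in these genes. The 41 genes were higher in replicate 1 than in the mean of the other replicates by a median of 0.19 on the log2 scale, against -0.00071 over all rows. The median was 0.31 for the mevalonate genes and 0.33 for the sterol synthesis genes, and the values ran from -0.18 for *Lbr* to 0.69 for *Hmgcs1*. Replicate 1 was the highest in all 3 conditions for 23 of the 41 genes (56.1%), beside 22.2% of all rows. *Pgr* and *Greb1* were also highest in replicate 1 in each condition. What sets replicate 1 apart was not tested, and the sources used here do not say how the replicates differed.

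**Figure D4:**
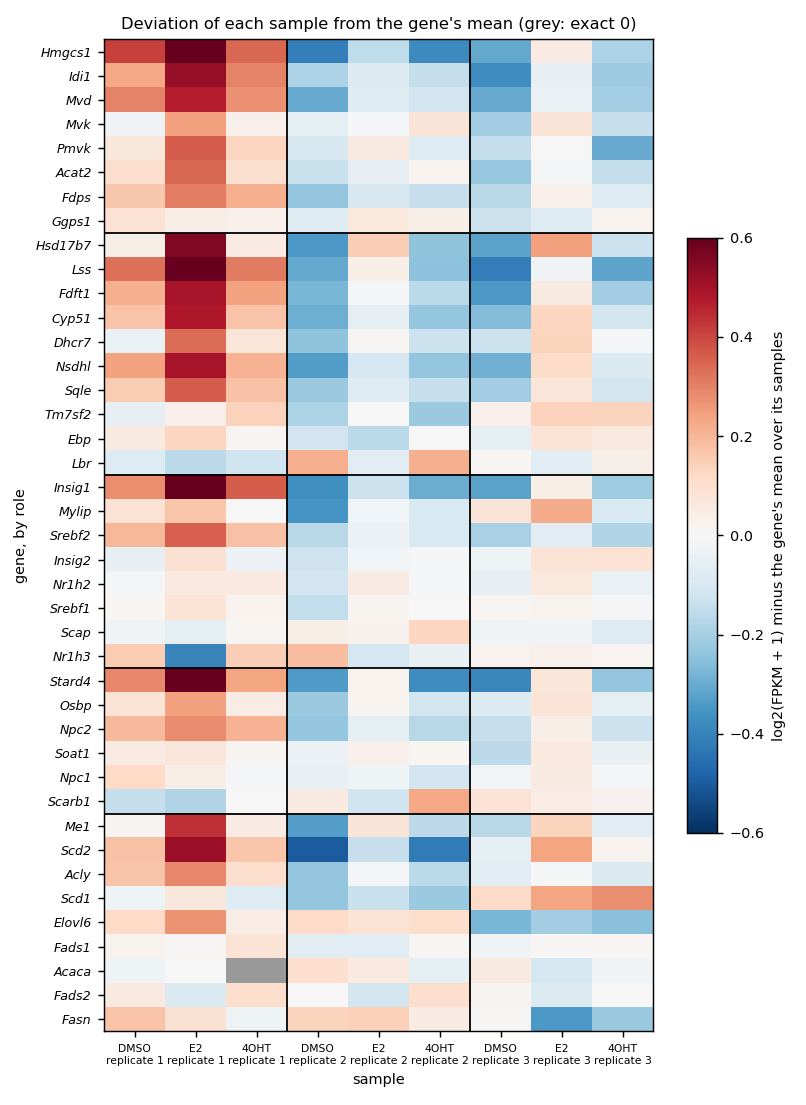
Log2(FPKM + 1) of the 41 tested genes in each sample minus the mean of the gene over its samples, with samples ordered by replicate number and genes by role. The colours stop at 0.6 to either side, which 4 values exceed, up to 0.72. Most mevalonate and sterol synthesis genes are red across replicate 1 and reddest in its E2 sample, with exceptions such as *Lbr*, which is blue in all 3 samples of replicate 1, and within replicates 2 and 3 most of them are redder in the E2 column than in its DMSO and 4OHT neighbours. Grey is the exact 0 of *Acaca*.

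Further genes of the same pathways, which are not among the 43, were examined with the same fit. Of 38 tested, 16 were higher in E2 than in DMSO (7 of 17 sterol genes and 9 of 21 fatty acid genes) and 0 were lower, again beside 12.2% and 6.66% of all rows. These lists, too, were chosen with earlier results of these data known. Without the block 0 were called, and 11 had an unadjusted p under 0.05, beside 1236 of all 11250 rows (limma). In the sterol pathway, *Sc4mol*, the C4 methyl oxidase, rose by 0.39, the desaturase *Sc5d* by 0.28 and the late endosomal sterol carrier *Stard3* by 0.20. In the fatty acid pathway the largest rise was that of *Mid1ip1*, which promotes the polymerisation of acetyl-CoA carboxylase. It had 249, 119 and 133 FPKM in DMSO, 442, 230 and 236 FPKM in E2 and 272, 138 and 142 FPKM in 4OHT (0.87, standard error 0.038, adjusted p = 8.0e-06). *Acss2*, an acetyl-CoA synthetase, rose by 0.41, the elongases *Elovl7*, *Elovl5* and *Elovl1* by 0.31, 0.31 and 0.16, the acyl-CoA synthetases *Acsl1* and *Acsl4* by 0.29 and 0.25, the elongation reductase *Hsd17b12* by 0.21 and the citrate carrier *Slc25a1* by 0.18.

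The quantification adds 1 limit to single genes. In the GENCODE annotation of GRCm38, 12 of the 43 genes share exon bases with a gene on the opposite strand, among them *Cyp51* with *Akap9*, *Fdft1* with *Ctsb* and *Srebf1* with *Rai1*, and 6 with a gene on the same strand, among them *Tm7sf2* with *Vps51*. The libraries kept strand, but the use of strand in the quantification is not given in the sources used here. RNA was measured in bulk, so that a change in RNA per cell and a change in the number of cells that express a gene cannot be told apart.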

How the data were processed

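RNA from 9 samples (3 each of DMSO, E2 and 4OHT) was read as oligo-dT selected, directional 50 bp single-end libraries. The deposited values are FPKM, which the authors made by aligning trimmed reads to mm10 with TopHat2 2.0.8b and estimating known UCSC genes with Cufflinks, and the submitters' processing notes name Cuffdiff 2.1.1. Counts were not used here, so no counting interval is given. The relative depth of the samples was estimated from the steps between low FPKM and entered no test.

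Groups and replicate numbers came from the labels. FPKM of all 9 samples entered 1 limma fit (3.58.1, R 4.3.3; Python 3.11.15 for the rest) on log2(FPKM + 1), with the replicate number as a block and a variance trend. A log2 fold change on this scale understates the change of weak genes. Rows entered where 3 or more samples reached 1 FPKM (11339 rows). An exact 0 was taken as missing where the median of the nonzero values was at least 1 (242 rows), and 2 values per condition were needed, which left 11250 rows. Benjamini-Hochberg adjustment was made within each contrast, with a threshold of 0.05. The authors' own test was unpaired, so the fit without the block is given beside the main one. The pairing was checked over 11094 rows without a 0: the deviations from the condition means correlated at 0.523 to 0.828 in the 9 pairs of samples that share a number.

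The genes and lists were chosen with earlier results of these data known. FPKM in every sample are given for the 8 genes with the largest called change between E2 and DMSO, the 4 with the lowest unadjusted p for 4OHT, the 4 with the largest called difference between the ligands, genes with an exact 0, and *Srebf1*, *Srebf2*, *Insig1*, *Nr1h3*, *Mylip*, *Abca1* and *Abcg1*. Those of *Mid1ip1* and *Fads2* were added after their values were seen. Called genes of the other pathway lists, *Pgr* and *Greb1* are also named, apart from some that are counted but not reported here. The fit was also run on simulated data in which each replicate number had its own effect, shared by all conditions. That run checks the code and cannot show whether the pairing is right for these samples. Alternatives were no block, zeros kept, a pseudocount of 0.1, other filters and scalings, no variance trend, the 6 samples compared, a threshold of 0.01, and samples or replicate numbers left out.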

Additional observations from a re-analysis of the deposited data

How the results depend on the processing

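Without the replicate block, the number of lipid synthesis genes called was 0 for E2 versus DMSO, 0 for E2 versus 4OHT and 0 of the other pathway genes, and it was also 0 in each of these with exact zeros kept and no block. At an adjusted p under 0.01 it was 12 for E2 versus DMSO and 9 for E2 versus 4OHT, with fewer of all rows called. With samples or replicate numbers left out, it ranged from 10 to 21 for E2 versus DMSO, where replicate 3 (10) and DMSO replicate 3 (12) lowered it by over 1.5 times, and from 6 to 17 for E2 versus 4OHT, where this held without replicate 1 (6), 4OHT replicate 1 (7), replicate 3 (8), E2 replicate 1 (11) and 4OHT replicate 2 (11). The other settings with the block kept each of these counts within 1.5 times, from 16 to 21 for E2 versus DMSO. For 4OHT versus DMSO it was 0 in every setting run. Single fold changes were followed over the settings only for some genes, mainly those called. These were 23 genes for E2 versus DMSO, 5 for 4OHT versus DMSO and 18 for E2 versus 4OHT. Among them the one change of sign was that of *Acaca* with E2, 0.0064 without E2 replicate 3, within a range of -0.10 to 0.0064 over the fits that left out a sample. The signs of the other genes, some with changes near 0, were not followed. The cause of these differences was not tested. Leaving out a sample also leaves fewer samples for the fit. In both comparisons of E2, each fit that left out a sample or a replicate number also called fewer of all rows. FPKM carry no counts, and with 3 samples per group small changes rest on the pairing.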
